A study of Rattus norvegicus with 4 samples.

Results

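Polyamines are small positively charged molecules that bind nucleic acids and ribosomes. Cells hold them within a narrow range by matching synthesis, uptake, acetylation and oxidation. The 10 genes described here cover that control: synthesis (Odc1, Amd1, Srm and Sms), the antizyme system (Oaz1, Oaz2 and Azin1) and breakdown (Sat1, Smox and Paox). They were chosen by role, with the difference of Sat1 between genotypes already known from these libraries. Each symbol matched 1 row of every table, so all 10 genes are among the 32753 in the series. The genotype difference of each of them is therefore given as a description, with no p-value of its own.

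The libraries come from rat embryonic stem cells of strain DASD, either wild type (WT) or Kcnh2-/-, at day 4 of differentiation as embryoid bodies, with 2 libraries per genotype. Kcnh2 encodes the potassium channel ERG1. All 4 cultures spent 2 days in hanging drops with CHIR9902 (0.75 µM), PD0325901 (0.1 µM) and Y27632 (10 µM), 24 hours on laminin with CHIR9902 and PD0325901, and 1 day in medium DM. The labels do not say how the Kcnh2 alleles were made, how many lines were used or whether the replicates were separate cultures, so errors measure only the spread between these libraries, which may be technical. Values are RPKM, reads per kilobase of transcript scaled to the size of the library, and absolute read depth is unknown.

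Several properties of the libraries bear on the comparison. Kcnh2 was at 2.61 and 1.45 RPKM in the WT libraries against 0.108 and 0.504 in Kcnh2-/-. Eif2s3y, a Y-linked gene, was at 153 and 135 against 0.0574 and 0.140. Summed RPKM of 8 pluripotency markers was 558 in WT replicate 1 and 1507 to 2372 in the other 3 libraries. The largest part was Pou5f1, at 273 and 1203 in the WT libraries against 1043 and 1679 in Kcnh2-/-. Tdgf1 followed the sum, at 41.3 and 226 against 240 and 409, but not every marker did. Nanog, at 2.50 and 72.6 against 8.69 and 74.1, was low in both replicate 1 libraries. So was Esrrb, at 1.58 and 20.5 against 4.47 and 27.9. Lin28a was at 196 and 220 against 168 and 101, and Sox2 at 33.9 and 47.8 against 18.1 and 43.8. Sums over 6 cardiac, 7 endoderm and 5 fibroblast markers were highest in WT replicate 1 (677, 159 and 22.4) and lowest in Kcnh2-/- replicate 2 (8.61, 2.73 and 0.419). The 6 streak and mesoderm markers summed to 14.2 to 39.3 and the 4 macrophage markers to 0.976 to 3.18, with the leukocyte marker Ptprc at 0 in 3 libraries. Actc1 and Tnnc1 held most of the cardiac sum, and the cardiac markers Nkx2-5 and Myh6 were at 0.111 RPKM or below in every library. The part of these differences in the results was not tested. In bulk RNA, fewer cells of a type and less RNA per cell cannot be told apart.

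In the pathway, ornithine decarboxylase (Odc1) turns ornithine into putrescine, and S-adenosylmethionine decarboxylase (Amd1) supplies the aminopropyl groups with which spermidine synthase (Srm) and spermine synthase (Sms) build the longer polyamines. Antizymes bind ornithine decarboxylase and deliver it to the proteasome. They are made through a ribosomal frameshift that polyamines promote, so their RNA level is not a measure of antizyme protein. Breakdown starts with the acetyltransferase encoded by Sat1, whose acetylated products are oxidised by Paox, while Smox oxidises spermine directly.

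Promoter sequence from RefSeq (assembly GRCr8) was found for 9 of the 10 genes, all but Azin1. The 250 bases before the start are shown for Sat1 and Sms, the X-linked members that were both higher in Kcnh2-/-, and for Odc1 and Oaz1, the members with the highest RPKM. Capitals mark every match, on either strand and with overlap allowed, to the TATA box letters TATAA, the CAAT box letters CCAAT or the E-box letters CACGTG.

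Sat1 (chrX:44007839-44008088, plus strand): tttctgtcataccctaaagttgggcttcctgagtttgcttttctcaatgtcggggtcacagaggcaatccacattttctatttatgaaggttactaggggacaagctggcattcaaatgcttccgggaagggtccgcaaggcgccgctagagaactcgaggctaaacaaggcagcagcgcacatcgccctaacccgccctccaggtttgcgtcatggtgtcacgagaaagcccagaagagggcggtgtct
Sms (chrX:41331753-41332002, plus strand): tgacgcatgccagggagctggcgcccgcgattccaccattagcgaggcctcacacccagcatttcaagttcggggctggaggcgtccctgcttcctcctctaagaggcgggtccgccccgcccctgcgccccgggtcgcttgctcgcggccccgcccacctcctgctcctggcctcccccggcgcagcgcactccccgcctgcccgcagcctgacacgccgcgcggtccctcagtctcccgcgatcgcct
Odc1 (chr6:46058415-46058664, plus strand): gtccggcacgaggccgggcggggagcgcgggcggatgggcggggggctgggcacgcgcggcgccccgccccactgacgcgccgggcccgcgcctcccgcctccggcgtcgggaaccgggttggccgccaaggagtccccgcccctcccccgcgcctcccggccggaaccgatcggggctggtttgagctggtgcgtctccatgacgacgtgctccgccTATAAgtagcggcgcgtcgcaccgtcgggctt
Oaz1 (chr7:9536991-9537240, minus strand): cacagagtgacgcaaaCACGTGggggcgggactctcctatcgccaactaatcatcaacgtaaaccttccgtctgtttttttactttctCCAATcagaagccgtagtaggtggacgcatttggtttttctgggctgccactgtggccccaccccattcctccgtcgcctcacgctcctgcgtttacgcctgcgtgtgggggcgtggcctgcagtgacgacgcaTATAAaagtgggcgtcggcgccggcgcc

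No capitals fall in the Sat1 and Sms windows. TATAA was in the Odc1, Amd1 and Oaz1 windows and in 24.0% of all 33469 promoters in the table. CACGTG, the letters bound by Myc and Max, was in the Srm and Oaz1 windows and in 5.59% of all promoters, and CCAAT was in the same 2 member windows and in 34.02%. The windows of 8 of the 9 genes, all but Smox, held GGGCGG, against 30.5% of all. TATGACTAA, known as the polyamine response element of the human SAT1 gene, was in none of the 9 and in 0.140% of all. The antioxidant response core TGACNNNGC was in Oaz1 alone, against 10.1% of all. G and C made up 52.8% of the Sat1 window, the lowest of the 9, and 78.4% of the Srm window, the highest, with a median of 51.2% over all promoters. These matches are descriptions of letters and not binding sites, and the motifs were chosen with the sequences in view. Only the 250 bases before each start were searched, so a motif further upstream or inside a gene would be missed.

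Among the synthesis genes, Sms was about double in Kcnh2-/-, Odc1 and Amd1 differed little, and Srm was close to the lower limit of the data. Odc1 (rn6 chromosome 6, 42852682 to 42859927) was at 535 and 614 RPKM in the WT libraries, replicate 1 first, against 675 and 669 in Kcnh2-/-. The groups did not overlap, by a gap smaller than the distance between the WT libraries. Its mean log2(RPKM + 1) was 0.23 ± 0.31 (SE) higher in Kcnh2-/-. The row of Odc1 shares its whole locus with AABR07063704.1, which the files list at 24363 to 181918 RPKM, and how reads were divided between them is not shown in the files.

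Amd1 (chromosome 20, 45383999 to 45399694) was at 84.1 and 85.2 RPKM in the WT libraries against 105 and 85.3 in Kcnh2-/-. Its difference of 0.16 ± 0.25 came from Kcnh2-/- replicate 1 alone, since within replicate number 2 the difference was 0.00110. Sms (X, 40363645 to 40415109) was at 90.3 and 97.5 RPKM in the WT libraries against 195 and 186 in Kcnh2-/-, means of 93.9 ± 5.09 and 191 ± 6.37 (SD, n = 2 each). That is a 2.03-fold higher mean and a log2 difference of 1.02 ± 0.24 (SE), with 1.10 and 0.93 within replicate numbers 1 and 2. Sms and Amd1, which stood close to each other in WT, were thus separated in Kcnh2-/-: the ratio of Sms to Amd1 was 1.07 and 1.14 in WT and 1.86 and 2.18 in Kcnh2-/-.

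Srm (chromosome 5, 165405167 to 165408320) was at 0.732 and 0.218 RPKM in the WT libraries against 2.25 and 1.93 in Kcnh2-/-. Both Kcnh2-/- libraries were above both WT libraries, and the log2 difference was 1.09 ± 0.39 (SE). Srm met the expression filter of 1 RPKM in at least 2 libraries only through the Kcnh2-/- group, so a higher value there was built into its being tested. Its level was far below those of the other synthesis genes in every library, and below those of its neighbours Exosc10, at 42.2 to 51.1 RPKM, and Masp2, at 3.72 to 5.85. Whether these values reflect the RNA level of Srm could not be settled from the RPKM tables, so its difference carries that limit.

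**Figure D1:**
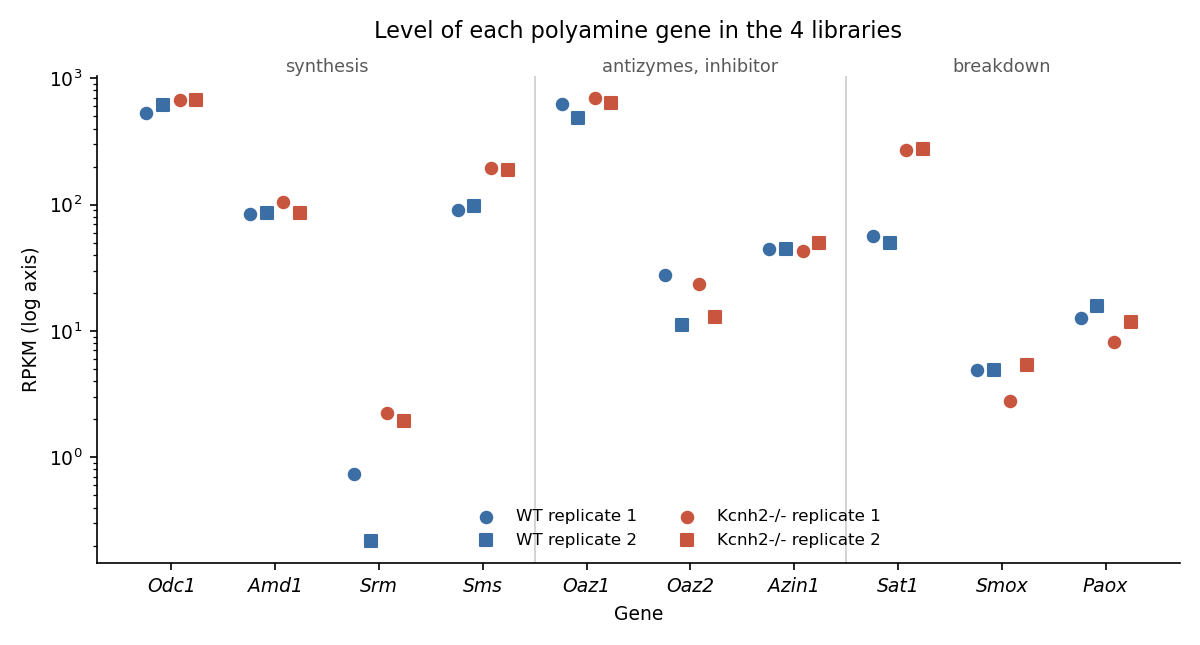
Points give RPKM (log axis) of the 10 genes in each library, with WT in blue and Kcnh2-/- in red, circles for replicate 1 and squares for replicate 2. Odc1 and Oaz1 lie between 486 and 699 RPKM in all libraries, Srm lies at 2.25 or below, and Sat1 and Sms separate by genotype.

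The antizyme genes and the antizyme inhibitor showed no shared difference between genotypes. Oaz1 (chromosome 7, 11752411 to 11754508) was at 629 and 486 RPKM in the WT libraries against 699 and 641 in Kcnh2-/-, a log2 difference of 0.27 ± 0.33 (SE). The Kcnh2-/- libraries were higher, but WT replicate 1 lay closer to Kcnh2-/- replicate 2 than to WT replicate 2. Oaz1 and Odc1 had the 2 highest values of the 10 in every library, and their order changed: Oaz1 was above Odc1 in both replicate 1 libraries and below it in both replicate 2 libraries, with ratios from 0.792 to 1.18.

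Oaz2 (chromosome 8, 71216177 to 71228713), the less abundant antizyme gene, followed the replicate number and not the genotype. It was at 27.6 and 11.0 RPKM in the WT libraries against 23.4 and 12.9 in Kcnh2-/-, so that the groups overlapped fully. The log2 difference of replicate 2 minus replicate 1 was -1.25 in WT and -0.81 in Kcnh2-/-, against a genotype difference of -0.0119 ± 0.55 (SE). Oaz2 stood at 2.02% to 4.39% of Oaz1. Azin1 (chromosome 7, 77345645 to 77372398), which resembles ornithine decarboxylase and draws antizyme away from it, was the steadiest member, at 44.6 and 44.8 RPKM in the WT libraries against 42.9 and 50.0 in Kcnh2-/- (log2 difference 0.0508 ± 0.24, SE).

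The breakdown genes went different ways. Sat1 (X, 43625168 to 43629765) was at 56.7 and 49.6 RPKM in the WT libraries against 271 and 277 in Kcnh2-/-. The lower Kcnh2-/- library was above the higher WT library by far more than either pair differed. The mean was 5.15-fold higher, 53.1 ± 5.03 against 274 ± 4.36 RPKM (SD, n = 2 each), and the log2 difference was 2.35 ± 0.24 (SE), with 2.24 and 2.46 within replicate numbers 1 and 2. Without WT replicate 1, the library with the most differentiation marker RNA, it was 2.44. In WT, Sat1 had rank 5 of the 10 genes, below Amd1, and in Kcnh2-/- it had rank 3, above Sms.

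Paox (chromosome 1, 212570194 to 212603529) was lower in Kcnh2-/-, at 12.6 and 15.9 RPKM in WT against 8.15 and 11.8. The groups did not overlap, with a gap of less than 1 RPKM, and the log2 difference was -0.48 ± 0.32 (SE). Its locus is also listed for LOC100911186, which was at 0.173 to 0.426 RPKM. Smox (chromosome 3, 124068864 to 124102240) was at 4.93 and 4.95 RPKM in the WT libraries against 2.77 and 5.37 in Kcnh2-/-. The WT libraries lay between the Kcnh2-/- libraries, and the difference was -0.65 within replicate number 1 and 0.0984 within replicate number 2.

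**Figure D2:**
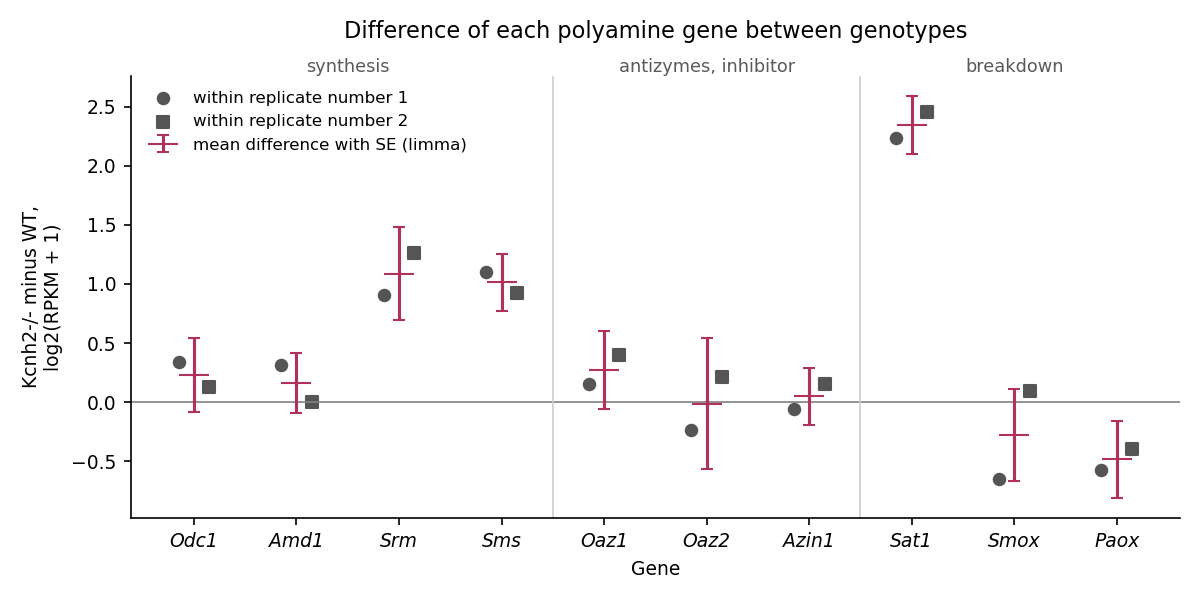
For each gene, grey points give Kcnh2-/- minus WT in log2(RPKM + 1) within replicate numbers 1 and 2, and the bar gives the mean difference with its SE from limma. Sat1 (2.35) and Sms (1.02) lie above the 7 genes between -0.48 and 0.27, and Srm (1.09) is at levels too low to be set beside them.

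Read as counts, both Kcnh2-/- libraries were above both WT libraries for 6 of the 10 genes and below both for 1. Over all 12355 genes tested the shares were 16.7% higher and 15.3% lower. The higher were the 4 synthesis genes, Oaz1 and Sat1, and the lower was Paox. Srm is counted here although it passed the filter only through the Kcnh2-/- libraries, so a higher value there was built in. The median log2 difference of the 10 was 0.19, against 0.00524 over all genes tested. Limma called none of the 10 after Benjamini-Hochberg adjustment, and called 0.113% of all genes tested (0.0324% higher and 0.0809% lower). At an unadjusted p under 0.05 limma had 3 of the 10 and 3.38% of all. With the replicate number as a block and protein-coding genes only, limma called 1 of the 10, Sat1, and 0.756% of all genes tested that way. Since the contrast was known when the genes were chosen, nothing is read from these counts. The small differences of Odc1 and Oaz1 were near that of other abundant genes: 963 protein-coding genes whose mean was 100 RPKM or above, a limit set after the data were seen, had a median difference of 0.29 (quartiles 0.12 and 0.44). Quantile normalization brought that median to -0.00540 and turned the differences of Odc1 (-0.14), Oaz1 (-0.13) and Amd1 (-0.0559) below 0.

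Ratios of 2 genes within a library do not change when a common factor scales all genes of that library. A shift that depends on level, as under quantile normalization, can change them, and the ratios were not rerun that way. RPKM is per length, so that genes can be set side by side. Sat1 stood at 10.6% and 8.08% of Odc1 in WT and at 40.1% and 41.4% in Kcnh2-/-, a log2 difference of 2.14. Summed RPKM of the 3 breakdown genes was 10.5% and 8.84% of the sum of the 4 synthesis genes in WT and 28.8% and 31.2% in Kcnh2-/-, a log2 difference of 1.64. Sat1 made up 70.4% to 76.4% of the breakdown sum in WT and 94.2% to 96.1% in Kcnh2-/-. With Sat1 left out, the direction turned: Smox and Paox together were 2.47% and 2.62% of the synthesis sum in WT and 1.12% and 1.82% in Kcnh2-/-, a log2 difference of -0.83. Odc1 made up 69.1% to 77.0% of the synthesis sum in all libraries, and the part of Sms went from 12.7% and 12.2% in WT to 20.0% and 19.8% in Kcnh2-/-.

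**Figure D3:**
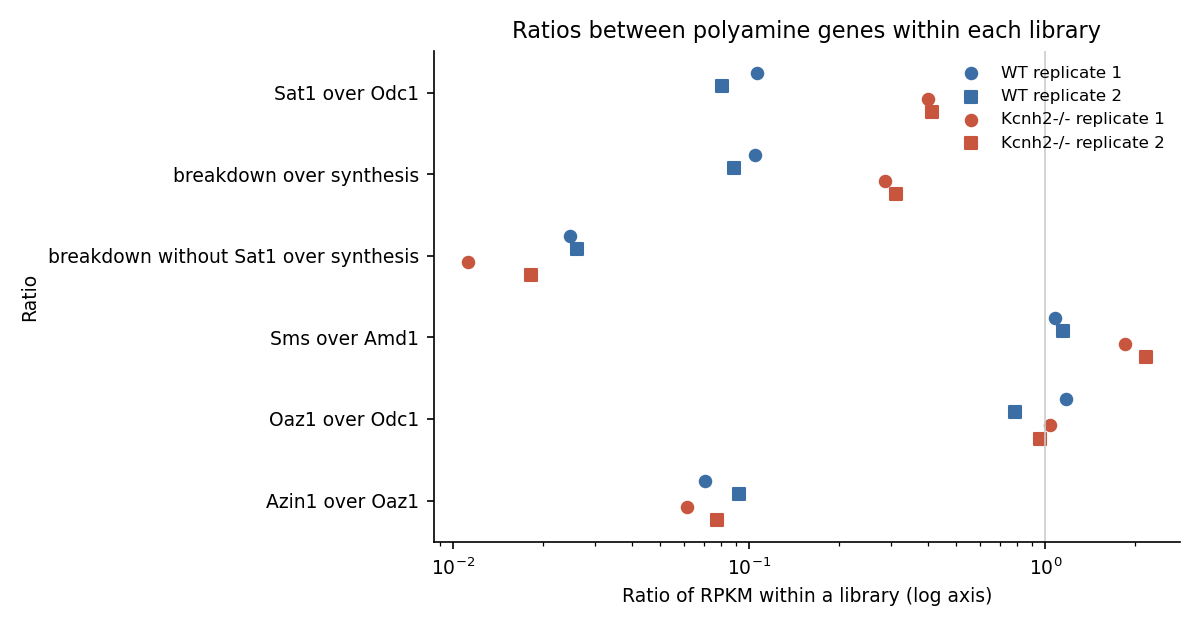
Each row gives a ratio of RPKM values within a library on a log axis, with WT in blue, Kcnh2-/- in red, circles for replicate 1 and squares for replicate 2. Sat1 over Odc1 rests between 0.0808 and 0.106 in WT and between 0.401 and 0.414 in Kcnh2-/-, and breakdown over synthesis turns to the other side once Sat1 is left out.

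Sat1 and Sms are both X-linked, and X-linked genes as a whole were higher in Kcnh2-/-. Over the 359 X-linked protein-coding genes tested, the median log2 difference was 0.60, with 0.64 and 0.59 within replicate numbers 1 and 2, against -0.0191 over 10483 autosomal protein-coding genes. The groups did not overlap and Kcnh2-/- was higher for 188 of the 359 (52.4%), against 15.4% of the autosomal genes. Sms was 0.41 above the X-linked median, and 97 of the 359 had a larger difference (83 and 122 within replicate numbers 1 and 2). That distance was 0.21 without WT replicate 1 and 0.18 under quantile normalization. Sat1 was 1.75 above that median. Within replicate numbers 1 and 2, 13 and 15 of the 359 had a larger difference than Sat1. In the pooled difference 7 did: Tex11, Pnma5, Map3k15, RGD1560203, Heph, Usp26 and Slc7a3. Of these, the arginine transporter gene Slc7a3 was at 71.6 and 133 RPKM in the WT libraries against 352 and 714 in Kcnh2-/-. Both WT libraries held RNA of the Y-linked Eif2s3y and both Kcnh2-/- libraries were near 0 for it, as given above. In these 4 libraries the Kcnh2 genotype and a difference in sex chromosomes cannot be told apart, for Sat1 and Sms as for the X-linked genes together.

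Of the protein-coding genes within 1 Mb of Sat1, 2 of 8 passed the filter. Acot9, an acyl-CoA thioesterase gene, was at 41.3 and 32.0 RPKM in the WT libraries against 68.6 and 115 in Kcnh2-/- (log2 difference 1.27). Prdx4, a peroxiredoxin gene of the secretory pathway, was at 174 and 95.7 against 263 and 243 (0.96). Both neighbours were higher in both Kcnh2-/- libraries, by less than Sat1. Near Sms, 2 of 5 passed: the site-2 protease gene Mbtps2 had a log2 difference of 0.89, close to that of Sms, and Cnksr2 of -0.17.

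**Figure D4:**
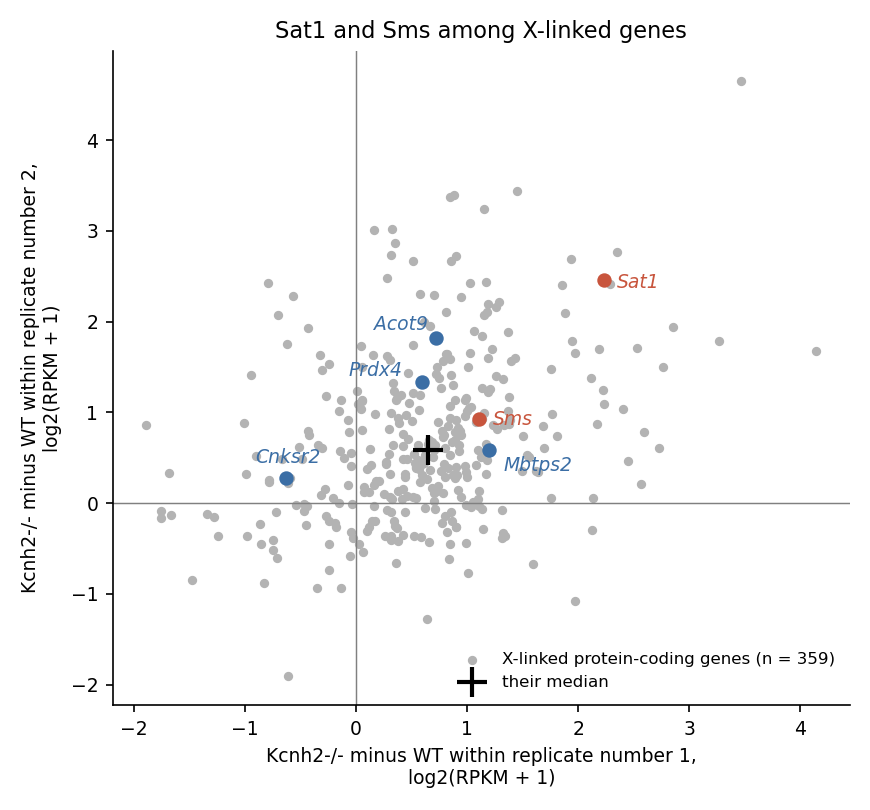
Each point is an X-linked protein-coding gene, with Kcnh2-/- minus WT in log2(RPKM + 1) within replicate number 1 (x axis) and 2 (y axis). Sat1 and Sms are in red, tested neighbours of theirs (Acot9, Prdx4, Mbtps2 and Cnksr2) in blue, and the cross is the median of the 359 genes, at 0.64 and 0.59. Sat1 lies far from the cross on both axes and Sms near it.

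The genes whose profile over the 4 libraries was nearest to that of Sat1 were sought by the root mean square distance of log2(RPKM + 1) after centring each gene, over 8004 protein-coding genes whose mean was 5 RPKM or above. The nearest were Cebpb (0.31), Ccdc152 (0.31), Usp26 (0.37), Eif2s3 (0.38) and Hprt1 (0.39), of which the last 3 are X-linked. Eif2s3 has a near-identical Y-linked copy, Eif2s3y. In Kcnh2-/-, Eif2s3 was at 382 and 486 RPKM while Eif2s3y was at 0.0574 and 0.140. In WT, Eif2s3 was at 147 and 130 and Eif2s3y at 153 and 135, and how reads were divided between them there is not shown. Cebpb, a transcription factor gene on chromosome 3, was at 7.85 and 6.71 RPKM in the WT libraries against 62.9 and 36.3 in Kcnh2-/-. For Odc1 the nearest were Edrf1 (0.0106), Ppp2r5e (0.0116) and Aars (0.0131). With 4 libraries, closeness of profile says little beyond the group difference.

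Beside the 10 genes, 48 genes of the wider pathway in 6 lists were examined, 33 of which passed the filter. None of these 33 differed as much as Sat1. The lists are not complete: the X-linked arginine transporter gene Slc7a3, described above, is in none of them, and its log2 difference was 2.35, as large as that of Sat1. Limma called 0 of the 33 after adjustment over all genes (adjusted p from 0.98 to 0.998), and 0 were at an unadjusted p under 0.05. With groups that did not overlap, 8 were higher and 4 lower in Kcnh2-/-, where the shares over all genes tested were 16.7% and 15.3%. The shares over all genes apply to each list below, and the lists are too short to be read against them. The median log2 difference was 0.00474, close to that of all genes tested.

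All 4 genes of the hypusine pathway, which turns spermidine into a modified lysine on the translation factor eIF5A, were higher in both Kcnh2-/- libraries than in either WT library on the deposited scale, with Eif5a turning to -0.0683 after quantile normalization. Over all genes tested 16.7% were higher in this way. Eif5a was at 602 and 742 RPKM in the WT libraries against 758 and 834 in Kcnh2-/- (log2 difference 0.25 ± 0.33, SE). Dohh, the hydroxylase of the last step, was at 91.7 and 116 against 140 and 161 (0.54 ± 0.27). For Eif5a2, a second eIF5A gene, the difference was 0.0432 within replicate number 1 and 1.17 within number 2, so that its separation rested on replicate 2. The list's median was 0.39, and no gene of it passed the test. Eif5a was near the median of abundant genes given above.

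Of the 9 tested genes of methionine and S-adenosylmethionine supply and salvage, 2 were higher and 2 lower without overlap (16.7% and 15.3% of all genes tested). Mat2a, which makes S-adenosylmethionine, was at 143 and 153 RPKM in the WT libraries against 196 and 141 in Kcnh2-/-. Enoph1, an enzyme of methylthioadenosine salvage, was at 28.9 and 35.9 against 41.9 and 57.8 (log2 difference 0.60 ± 0.29, SE, limma adjusted p = 0.98). Of the 7 tested genes of arginine and ornithine supply, 1 was higher without overlap (16.7% of all genes tested), and Slc7a3 is not in the list. The gene was Oat, which interconverts ornithine and glutamate semialdehyde, at 36.7 and 33.1 against 57.8 and 47.4 RPKM (0.57 ± 0.25, adjusted p = 0.98).

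Of the 5 transport genes tested, 1 was higher without overlap (16.7% of all genes tested). It was Atp13a3, which encodes a polyamine transporting ATPase, at 30.6 and 30.5 RPKM in the WT libraries against 39.5 and 30.9 in Kcnh2-/-, and replicate 2 hardly differed. Slc3a2, a subunit of amino acid exchangers that has been linked to polyamine export, was at 69.0 and 102 RPKM in the WT libraries against 85.4 and 123 in Kcnh2-/-. The proteoglycan gene Gpc1 was at 19.0 and 11.7 against 15.2 and 8.07. Among the other enzymes and inhibitors, only Sat2, a relative of Sat1, passed the filter, at 6.58 and 21.7 RPKM in the WT libraries against 12.5 and 14.6 in Kcnh2-/-. Its WT libraries lay on both sides of the Kcnh2-/- libraries. The other 5 (Oaz3, Azin2, Satl1, Aoc1 and Agmat) reached at most 0.803 RPKM.

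Of 7 genes of known regulators of Odc1 or Sat1 transcription, 0 were higher and 2 lower without overlap (16.7% and 15.3% of all genes tested). Mycn, which like Myc activates Odc1, was at 55.1 and 72.8 RPKM in the WT libraries against 85.1 and 47.3 in Kcnh2-/-, and Max, the partner of both, at 13.5 and 18.5 against 13.2 and 11.0 (log2 difference -0.36 ± 0.30, SE, limma adjusted p = 0.98). The difference of Max was -0.58 without WT replicate 1 and -0.15 without WT replicate 2. Nfe2l2, which encodes the Sat1 activator NRF2, was at 32.5 and 93.3 RPKM in the WT libraries against 48.9 and 75.6 in Kcnh2-/-. Its partner at the Sat1 gene, Pmf1, was at 52.0 and 65.9 against 43.1 and 87.5. For Nfe2l2 the WT libraries lay outside both Kcnh2-/- libraries, and for Pmf1 the Kcnh2-/- libraries lay outside both WT libraries.

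**Figure D5:**
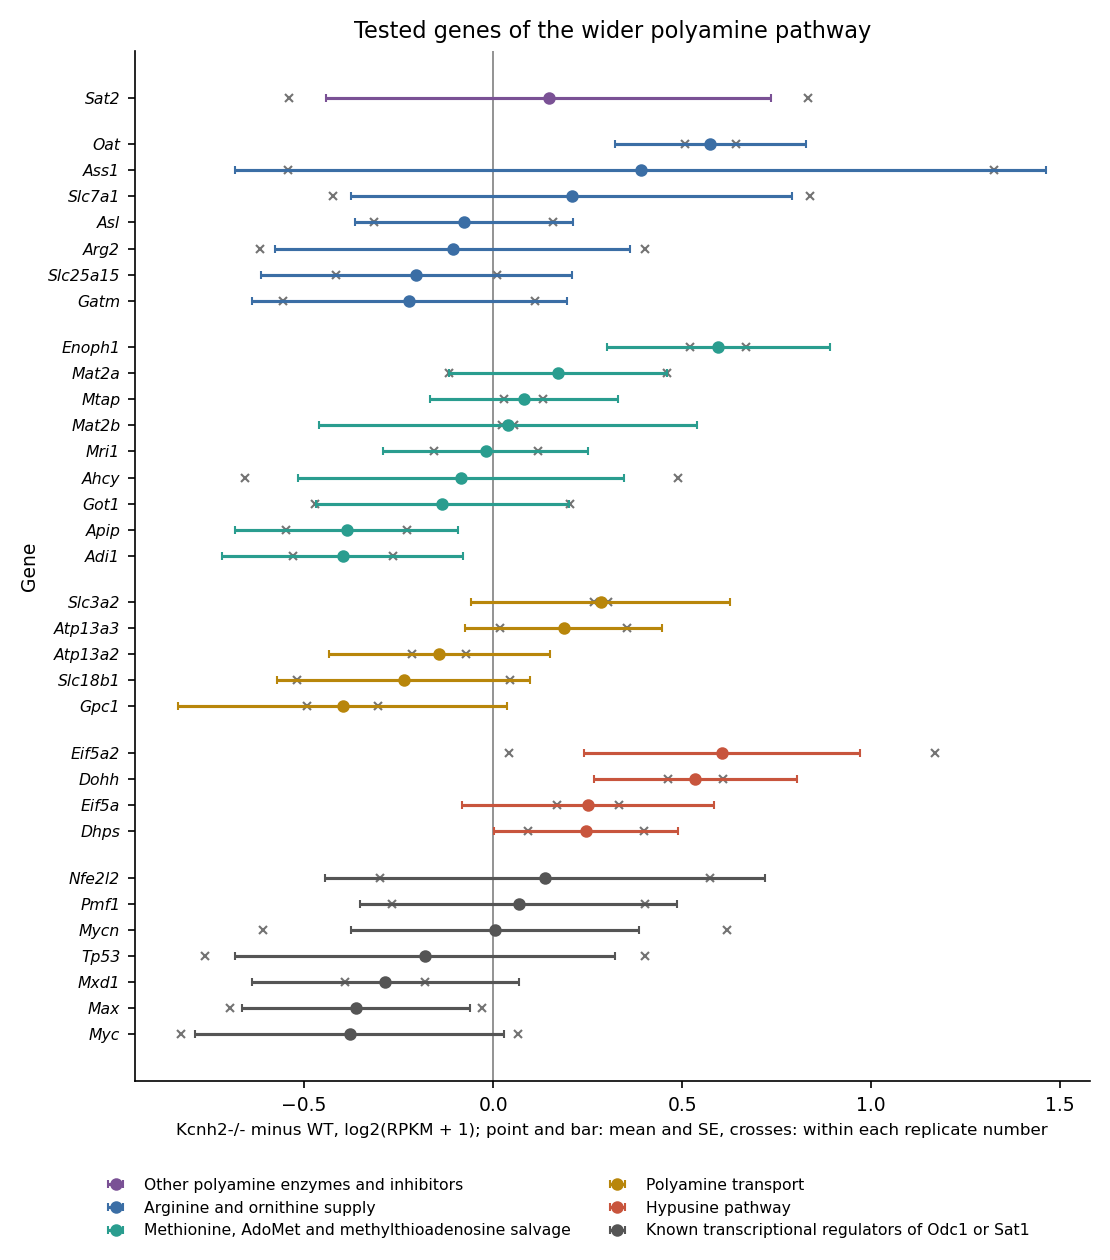
Each tested gene of the 6 wider lists is placed by its mean log2(RPKM + 1) difference, Kcnh2-/- minus WT, with its SE as a bar and the difference within each replicate number as crosses. All 33 means lie between -0.40 and 0.61, and the 4 hypusine genes are all to the right of 0 on this scale, Eif5a being at -0.0683 after quantile normalization.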

How the data were processed

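RNA-seq of 4 libraries, 2 WT and 2 Kcnh2-/-, was used as deposited. Per the labels' protocols, ribosomal RNA was removed from total RNA, and stranded libraries were read as 100-bp pairs. The authors deposited RPKM per gene, 1 table per library, with loci in rn6 coordinates. TopHat2 2.0.13, Cufflinks 2.2.1 and rn6 are named in the submitters' processing notes. The annotation and strand setting are not given in the sources used here.

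Differences were fitted with limma 3.58.1 in R 4.3.3 (lmFit, eBayes with trend, two-sided, no replicate term) on log2(RPKM + 1) for 12355 genes that reached 1 RPKM in 2 or more libraries, with Benjamini-Hochberg adjustment over all of them and a threshold of 0.05. The pseudocount understates changes of low genes. With 2 libraries a group, the smallest p of an exact permutation test is 0.333. Protein-coding genes were taken by symbol or synonym from RefSeq (GRCr8, names only). Of 32753 rows, 19341 matched a RefSeq name of any kind and 18646 a protein-coding one. Tables were made with pandas 2.3.3 and numpy 2.4.6 in Python 3.11.15, and plots with matplotlib 3.10.9.

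Depth is known only in relative terms. For each pair of libraries and genes below 0.08 RPKM in both, the most common RPKM ratio was 0.96 for WT over Kcnh2-/- replicate 1 and 1.03 for replicate 2, which held 30.4% and 32.8% of those genes within 1 bin of 0.01. Pairs of different number held 9.86% to 14.5%. Protein-coding genes held 0.538% to 9.69% of the RPKM sum of a library, and the sums were 7.95e+07 and 1.09e+08 in the replicate 1 libraries and 1.17e+07 and 8.93e+06 in replicate 2, so within-number values are given beside the pooled ones. The labels name no batch.

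The members and lists were chosen with earlier results of these data known. All 10 members are named. From each other list, the text names the gene with the highest mean and the gene of smallest p, and any past the threshold (there was none). It also names genes by profile distance and position as stated. Other genes (Exosc10, Masp2, Slc7a3, Nfe2l2, Pmf1, Atp13a3, Eif5a2 and Eif2s3y) were named after their values were seen. Marker lists covered pluripotent, streak and mesoderm, endoderm, cardiac, fibroblast and macrophage genes; Zfp42 and Col1a2 matched no row. Aldh18a1 matched 2 rows. Alternatives covered the pseudocount, filter, scaling, variance trend, gene set, a replicate block and each library left out.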

Additional observations from a re-analysis of the deposited data

How the results depend on the processing

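Sat1 stayed higher in Kcnh2-/- under every alternative run, with a log2 difference from 2.16 (quantile normalization) to 2.44, and from 2.25 to 2.44 with each library left out. Sms ran from 0.78 to 1.07, Srm from 0.83 to 2.08 (pseudocount 0.1) and Paox from -0.73 to -0.24. Odc1 moved from 0.23 to -0.14 under quantile normalization and ran from 0.13 to 0.33 with each library left out. Oaz1 ran from -0.13 to 0.46, Amd1 from -0.0559 to 0.31, Azin1 from -0.0571 to 0.16, Oaz2 from -0.64 to 0.61 and Smox from -0.65 to 0.10, so the direction of these 5 turned under at least 1 alternative, as did that of Odc1. Sat1 less the X-linked median ran from 1.55 to 1.83, and Sms less that median from 0.18 to 0.52.

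By the labels, libraries of different genotype are linked only by a replicate number. Libraries of the same number were also closer in RPKM sum, as given above, and the reason was not tested. The difference between replicates 1 and 2 in WT correlated with that in Kcnh2-/- over 12355 genes (r = 0.38), and with 2 pairs this does not establish a pairing. Taken within replicate numbers 1 and 2, the log2 ratio of Sat1 to Odc1 differed by 1.92 and 2.36 (2.14 pooled), and the log2 ratio of breakdown to synthesis by 1.46 and 1.82 (1.64 pooled). The latter was -0.83 without Sat1. With each library left out these ran from 1.94 to 2.33 and from 1.52 to 1.76.

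Limma called 14 genes of 12355. The count was 28 with the replicate block, 1 with no filter, 3 without the variance trend, 3 with protein-coding genes only, 82 with protein-coding genes only and the replicate block, and 10 to 16 with each library left out. Of the 10 members, Sat1 alone was called, and only with protein-coding genes only and the replicate block. The contrast was known when the members were chosen, so nothing is read from that call. Causes were not tested. Of the wider pathway lists, 0 genes were called under all 13 alternatives. Direction turned for Sat2 with a library left out (-0.64 to 0.94), Mat2a (-0.0603 under quantile normalization; -0.0642 to 0.41 with a library left out), Gpc1 (-0.82 to 0.0201), Mycn (-0.13 under quantile normalization; -0.41 to 0.42) and Eif5a (-0.0683 under quantile normalization). With each library left out, Enoph1 ran from 0.37 to 0.82, Max from -0.58 to -0.15 and Slc3a2 from 0.00644 to 0.56.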
